A study of Mus musculus with 3 samples.

Results

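The genes described here are the interleukins and interleukin receptors of mouse thymocytes, the cells that become T cells in the thymus. They were taken by name from the platform annotation: each probe set with a single gene symbol that begins with Il and a digit, without Il2ra. Where a gene had several probe sets, the probe set with the highest 3-array mean stands for it. This gave 75 genes of 19938 in all. They are 35 receptor genes, 37 cytokine genes and 3 others (Il18bp, a secreted protein that neutralises IL-18, Il1rn, the IL-1 receptor antagonist, and Il1bos, a transcript antisense to Il1b).

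RNA from whole thymocyte suspensions was hybridised to 3 arrays, 1 for each genotype. The groups were TCF-1-/- mice aged 8 weeks, β-catenin transgenic mice aged 16 weeks and WT mice aged 12 weeks. TCF-1 is a transcription factor of the Wnt pathway that can recruit β-catenin to its target genes. The design text asks which genes fall without TCF-1 and rise with extra β-catenin. With 1 array per group no value has an error and no difference has a test, so genotype, age and the individual array cannot be told apart. The labels give neither the number of mice behind an array, nor the promoter of the transgene, nor a strain, and no sort or gate is mentioned.

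Interleukin receptors pair a chain specific for one cytokine with a chain shared by a family. Most of them signal through JAK kinases and STAT transcription factors, while the IL-1 and IL-17 families use the adaptors MyD88 and Act1. In the thymus, IL-7 from the epithelium keeps early progenitors alive. Thymocytes largely switch off its receptor at the CD4+CD8+ double-positive stage and regain it as they mature.

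Values are the deposited log2 levels, and differences are in log2 units. A gene counts as called, higher or lower, where the difference reached 1, which is 2-fold. A gene is called dim where it lay below 6.90, the median level over all genes, on all 3 arrays. Many genes carry a value identical to the last digit on every array (33.6% of all genes and 35 of the 75 members), so a difference of 0 is no measured equality. The thymocyte label was checked first. Cd3e, a chain of the T cell receptor complex, was at 13.05 on the TCF-1-deficient, 13.34 on the transgenic and 13.42 on the WT array. Cd4 was at 9.13, 13.29 and 12.87 in the same order. Of 7 double-positive marker genes, 6 were lower without TCF-1 than in WT, and the mean level of the list was 10.27 there, 12.34 on the transgenic and 12.22 on the WT array. Xist, the RNA that coats the silenced X chromosome in female cells, had a level of 12.17 without TCF-1, 4.86 with the transgene and 12.49 in WT. Xist was low on the transgenic array alone, so a difference in sex between the mice cannot be told apart from the transgene. The part of such a difference in the transgenic values was not tested. The 4 X-linked members had identical values on all arrays.

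Between TCF-1-deficient and WT thymocytes 9 of the 75 genes were called, and 8 of these were receptors. Of 35 receptor genes, 4 were higher (Il9r, Il12rb2, Il23r and Il17rd) and 4 were lower (Il4ra, Il21r, Il17re and Il10rb). This is 11.4% in each direction, against 1.33% of all 19938 genes higher (266) and 2.62% lower (523) in the same comparison. With each array centred on its median these counts over all genes were 364 and 405, and Il10rb fell short of 2-fold. The median difference was 0 over the receptors and 0 over all genes. At 1.5-fold, 6 receptors were higher and 6 lower (17.1% each), against 4.04% and 6.9% of all genes. Of the 37 cytokine genes 1, Il10, was higher and 0 were lower. None of the 3 other genes was called. In bulk RNA, fewer cells of a type and less RNA per cell cannot be told apart, and the double-positive markers given above moved between the same arrays.

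**Figure D1:**
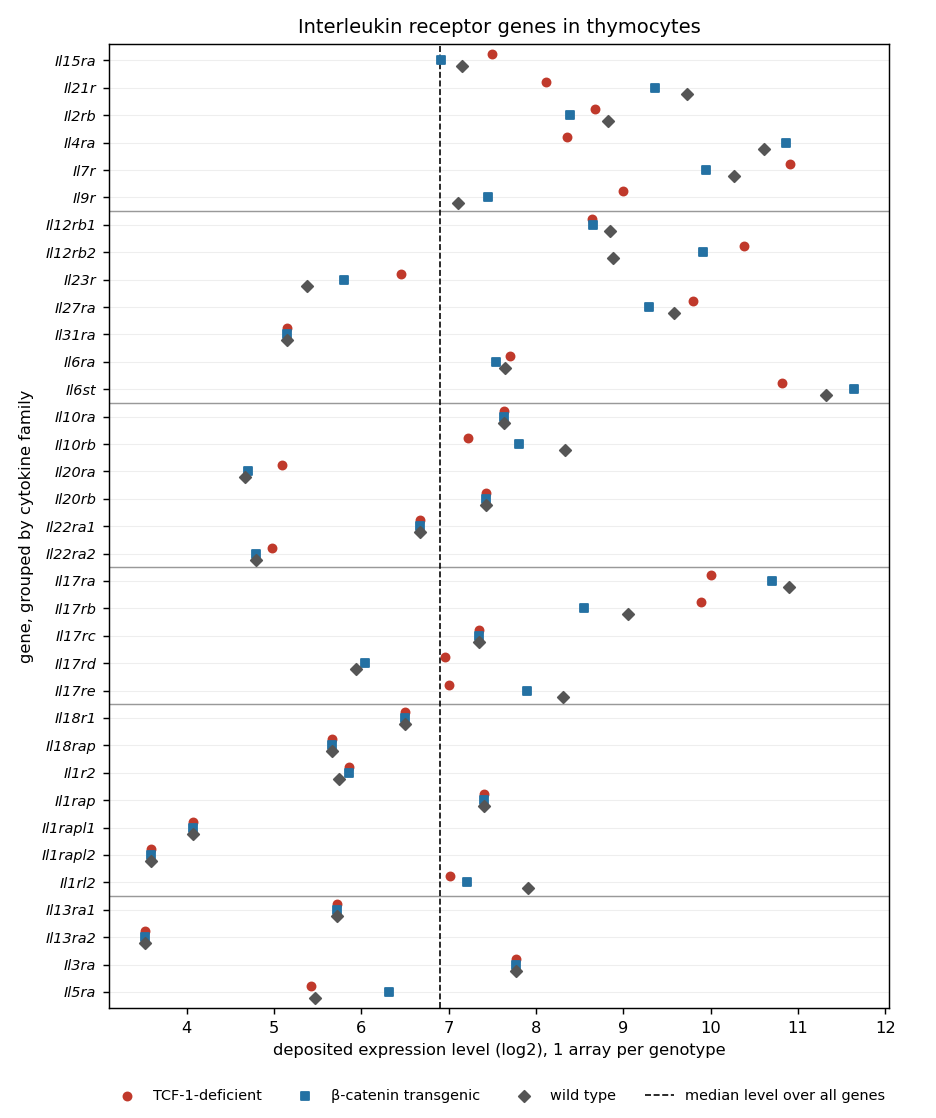
Levels of the 35 interleukin receptor genes on the 3 arrays, 1 point per array on the log2 scale, with genes grouped by cytokine family. Points for Il4ra and Il21r on the TCF-1-deficient array lie left of the other arrays, those for Il9r and Il12rb2 lie right of them, and 13 genes lie left of the dashed line at 6.90 on every array.

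Among receptors that use the common γ chain, the IL-4 receptor chain had the largest difference. Il4ra encodes the α chain of the receptors for IL-4 and IL-13. It was at 8.35 on the TCF-1-deficient, 10.86 on the transgenic and 10.61 on the WT array. The TCF-1-deficient array was thus low and the other arrays were close to each other. The difference between TCF-1-deficient and WT was -2.26, which is 4.79-fold, and between transgenic and WT it was 0.25. Il21r, the receptor for IL-21, was at 8.11 on the TCF-1-deficient, 9.36 on the transgenic and 9.73 on the WT array. It too was low on the TCF-1-deficient array, with a difference from WT of -1.62 (3.07-fold). Its difference on the transgenic array was -0.37.

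Il9r, the receptor for IL-9, went the other way. It was at 8.999 on the TCF-1-deficient, 7.45 on the transgenic and 7.11 on the WT array. The difference between TCF-1-deficient and WT was 1.89 (3.71-fold), and the transgenic array lay 0.34 above WT. Il7r, which encodes the α chain of the IL-7 receptor, was at 10.90 on the TCF-1-deficient, 9.95 on the transgenic and 10.27 on the WT array. Its differences from WT were 0.63 without TCF-1 and -0.32 with the transgene, both under 2-fold, so it was high on the TCF-1-deficient array by a smaller margin. Il2rb, the β chain shared by the IL-2 and IL-15 receptors, was at 8.67, 8.38 and 8.82 in the same order. Il15ra, which binds and presents IL-15, was at 7.49, 6.91 and 7.15. Neither reached 1.5-fold against WT in either comparison. The γ chain itself, Il2rg, was not analysed here.

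Receptors of the IL-6 and IL-12 type held the second pair of called genes, both higher. Il12rb2 encodes the chain that makes cells responsive to IL-12. It was at 10.38 on the TCF-1-deficient, 9.91 on the transgenic and 8.89 on the WT array. Here the WT array was the low one, with differences of 1.49 (2.81-fold) without TCF-1 and 1.03 (2.04-fold) with the transgene. Its partner chain Il12rb1, which also serves the IL-23 receptor, was at 8.64, 8.66 and 8.85, a difference of -0.21 without TCF-1. Il23r, the chain specific for IL-23, was at 6.46 on the TCF-1-deficient, 5.80 on the transgenic and 5.38 on the WT array. Its difference without TCF-1 was 1.08 (2.11-fold). All of its levels are dim, so the size of that fold is uncertain.

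The remaining chains of this type moved less. Il6st encodes gp130, the signalling chain shared by IL-6, IL-11 and related cytokines. It was at 10.82 on the TCF-1-deficient, 11.64 on the transgenic and 11.32 on the WT array, with differences from WT of -0.51 and 0.31. Il6ra, the IL-6 binding chain, was at 7.70, 7.54 and 7.65. Il27ra, the chain specific for IL-27, was at 9.80, 9.29 and 9.58, and neither gene reached 1.5-fold. Il31ra was dim and identical on all arrays at 5.14.

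The IL-17 receptor chains moved in both directions. Il17re, which binds IL-17C, was at 7.003 on the TCF-1-deficient, 7.90 on the transgenic and 8.31 on the WT array. It was lowest without TCF-1, by -1.30 against WT (2.47-fold). Il17ra, the chain that most receptors of the family share, was at 10.001, 10.70 and 10.90. Its difference without TCF-1 was -0.90, past 1.5-fold and under 2-fold. Il17rb, which binds IL-25, was at 9.89 on the TCF-1-deficient, 8.55 on the transgenic and 9.05 on the WT array. It was high without TCF-1 by 0.84 and lower with the transgene by -0.50, each against WT. Il17rd, a member known mainly as an inhibitor of growth factor signalling, was at 6.96, 6.04 and 5.94. Its difference without TCF-1 was 1.02, just past 2-fold, and its second probe set gave 0.46. The transgenic and WT levels of Il17rd lay below the limit for dim genes, and its TCF-1-deficient level lay just above that limit. The size of its fold is therefore uncertain. Il17rc, the partner of Il17ra for IL-17A and IL-17F, had the identical value of 7.34 on all arrays.

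Of the IL-10 type receptors, Il10rb, the chain shared by the receptors for IL-10 and IL-22, was at 7.22 on the TCF-1-deficient, 7.81 on the transgenic and 8.33 on the WT array. It was lower without TCF-1 by -1.11 (2.16-fold), and the transgenic array lay between the others. Il10ra, which binds IL-10, was identical on all arrays at 7.63, and Il20rb was identical at 7.43. Il20ra, Il22ra1 and Il22ra2, the soluble decoy of IL-22, were dim.

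In the IL-1 type, 0 of 7 receptor genes were called. At most 2.62% of all genes were called in either direction in any comparison, so this 0 says little about the family. Il1rl2, the IL-36 receptor, came nearest, at 7.02 on the TCF-1-deficient, 7.21 on the transgenic and 7.91 on the WT array, with differences of -0.89 and -0.70. Il1rap, the accessory chain of the family, was identical at 7.41, and the other 5 were dim: Il1r2, a decoy, Il1rapl1 and Il1rapl2, which act at synapses, and Il18r1 and Il18rap, the chains of the IL-18 receptor. Of the receptors for IL-3, IL-5 and IL-13, Il3ra was identical on all arrays at 7.77. Il5ra, Il13ra1 and Il13ra2 were dim, with differences without TCF-1 of -0.04, 0 and 0.

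**Figure D2:**
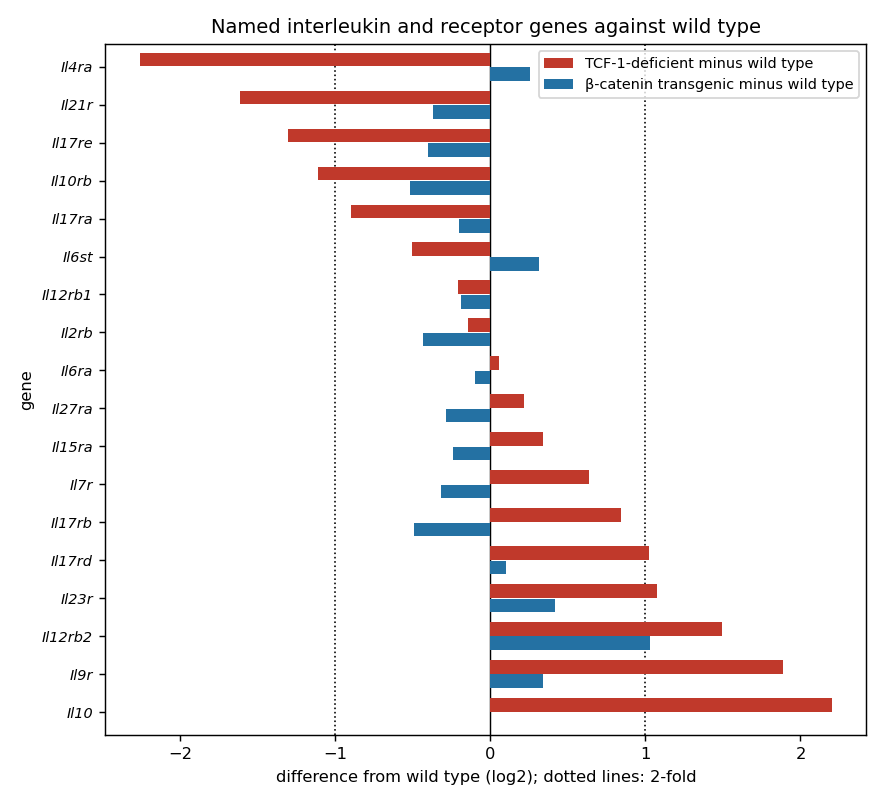
Differences from WT on the log2 scale for 18 named members whose values were not identical on all arrays, with the TCF-1-deficient array above the β-catenin transgenic array for each gene. Bars past a dotted line differ by at least 2-fold: 9 genes on the TCF-1-deficient array, from Il4ra at -2.26 to Il10 at 2.20, and Il12rb2 alone on the transgenic array at 1.03.

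Some of the called receptors lie side by side in the genome. In the gene order of GRCm38.p6, 18 pairs of members follow each other with no other protein-coding gene between them, and in 14 of these pairs both genes are dim. In 2 pairs both genes were called in the TCF-1-deficient comparison. Il4ra and Il21r on chromosome 7 were both lower, and Il12rb2 and Il23r on chromosome 6 were both higher, with Il23r dim on all arrays. The share of such pairs among all neighbouring genes was not computed. The 4 protein-coding genes nearest to the first pair, 2 on each side, differed from WT by between -0.05 and 0.02. Beside the second pair, Serbp1 differed by 0.45, Gadd45a by -0.25 and Rpia by 0. In the other 2 pairs that were not dim in both genes, 1 gene was identical on all arrays: Il17rc beside Il17re at -1.30, and Il31ra beside Il6st at -0.51.

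The sequences just upstream of these 4 receptor starts are printed so that the genes that moved in pairs can be compared, with that of Il7r, the receptor best known in the thymus. They are the 250 bases before the RefSeq start on GRCm38.p6, given 5′ to 3′ on the strand of the gene. Il4ra is at chr7:125552021-125552270 (plus strand), Il21r at chr7:125603179-125603428 (plus), Il12rb2 at chr6:67376189-67376438 (minus), Il23r at chr6:67491856-67492105 (minus) and Il7r at chr15:9529877-9530126 (minus). Capitals mark matches to the motifs described after them.
Il4ra: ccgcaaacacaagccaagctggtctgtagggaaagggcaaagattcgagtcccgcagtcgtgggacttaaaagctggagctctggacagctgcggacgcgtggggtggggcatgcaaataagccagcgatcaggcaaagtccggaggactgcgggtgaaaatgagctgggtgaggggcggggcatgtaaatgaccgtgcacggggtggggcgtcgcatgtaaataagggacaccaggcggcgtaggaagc
Il21r: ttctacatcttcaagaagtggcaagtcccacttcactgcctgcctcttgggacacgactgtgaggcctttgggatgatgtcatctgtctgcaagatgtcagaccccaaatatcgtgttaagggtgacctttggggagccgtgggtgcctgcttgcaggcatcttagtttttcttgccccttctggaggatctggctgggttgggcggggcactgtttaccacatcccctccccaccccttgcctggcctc
Il12rb2: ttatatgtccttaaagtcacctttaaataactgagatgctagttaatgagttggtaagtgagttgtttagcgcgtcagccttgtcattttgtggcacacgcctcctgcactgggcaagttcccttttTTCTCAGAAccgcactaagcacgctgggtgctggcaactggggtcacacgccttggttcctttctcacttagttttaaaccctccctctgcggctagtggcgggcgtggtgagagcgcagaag
Il23r: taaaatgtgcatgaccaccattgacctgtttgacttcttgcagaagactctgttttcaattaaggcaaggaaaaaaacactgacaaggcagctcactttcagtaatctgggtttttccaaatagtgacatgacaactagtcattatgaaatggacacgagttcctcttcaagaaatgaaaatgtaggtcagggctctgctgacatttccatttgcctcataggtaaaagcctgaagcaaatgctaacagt
Il7r: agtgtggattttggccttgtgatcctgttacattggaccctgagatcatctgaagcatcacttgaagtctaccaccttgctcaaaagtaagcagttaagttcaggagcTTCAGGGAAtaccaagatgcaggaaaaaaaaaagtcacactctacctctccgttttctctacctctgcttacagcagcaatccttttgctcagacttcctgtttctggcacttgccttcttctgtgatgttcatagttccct

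A search of these windows on both strands used ACAAAG and TCAAAG, the core bound by TCF and LEF factors, and TTCNNNGAA, the core bound by STAT factors. The motifs did not overlap in the printed windows. None of the 5 windows holds either TCF/LEF core, and the windows of Il12rb2 and Il7r hold 1 STAT core each, which starts 123 and 142 bases before the gene's start. Of the 75 members, 58 have an entry, with 70 windows in all, and 24 of these (34.3%) hold a TCF/LEF core. Over all 32851 windows the share was 27.6%. The STAT core was in 9 of 70 member windows (12.9%) and in 7.02% of all windows. Of the 9 members called in the TCF-1-deficient comparison, 7 have an entry, and 0 of these 7 windows hold a TCF/LEF core. The windows also differ in base composition, with 59.6% G and C in Il4ra and 39.6% in Il23r, against a median of 52.4% over all windows.

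The cytokine genes themselves were mostly dim in thymocytes. Of 37, 32 (86.5%) lay below 6.90 on all 3 arrays, against 13 of 35 receptors (37.1%) and 48.1% of all genes. All 6 measured cytokines that use the common γ chain were dim and identical on all arrays, among them Il7 at 4.20, Il15 at 4.07, Il2 at 4.38 and Il4 at 5.46. All 9 IL-1 type cytokines were dim as well, including Il1a, Il1b, Il18, Il33 and the IL-36 group (Il1f5, Il1f6, Il1f8 and Il1f9). The largest difference from WT among these 9 was 0.31, for Il1f9 without TCF-1. Dim values do not show that a transcript is absent.

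Il10 was the 1 cytokine gene called. It encodes an anti-inflammatory cytokine. Its level was 6.34 without TCF-1, and the transgenic and WT arrays had the identical value of 4.14. The difference was 2.20 (4.60-fold), but all of its levels are dim, so the size of the fold is uncertain. Il19, Il20 and Il24, its relatives in the same gene cluster, differed from WT by 0, 0.09 and 0 without TCF-1. The 5 cytokine genes that were not dim were Il16, Il17b, Il17c, Il27 and Il34. Il16, made as a precursor by lymphocytes and known as an attractant of CD4+ cells, was at 7.96 on the TCF-1-deficient, 8.42 on the transgenic and 8.40 on the WT array, a difference of -0.44 without TCF-1. The other 4 differed from WT by between -0.05 and 0.19 without TCF-1. Il18bp was at 7.61, 7.77 and 8.01 on the TCF-1-deficient, transgenic and WT arrays.

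**Figure D3:**
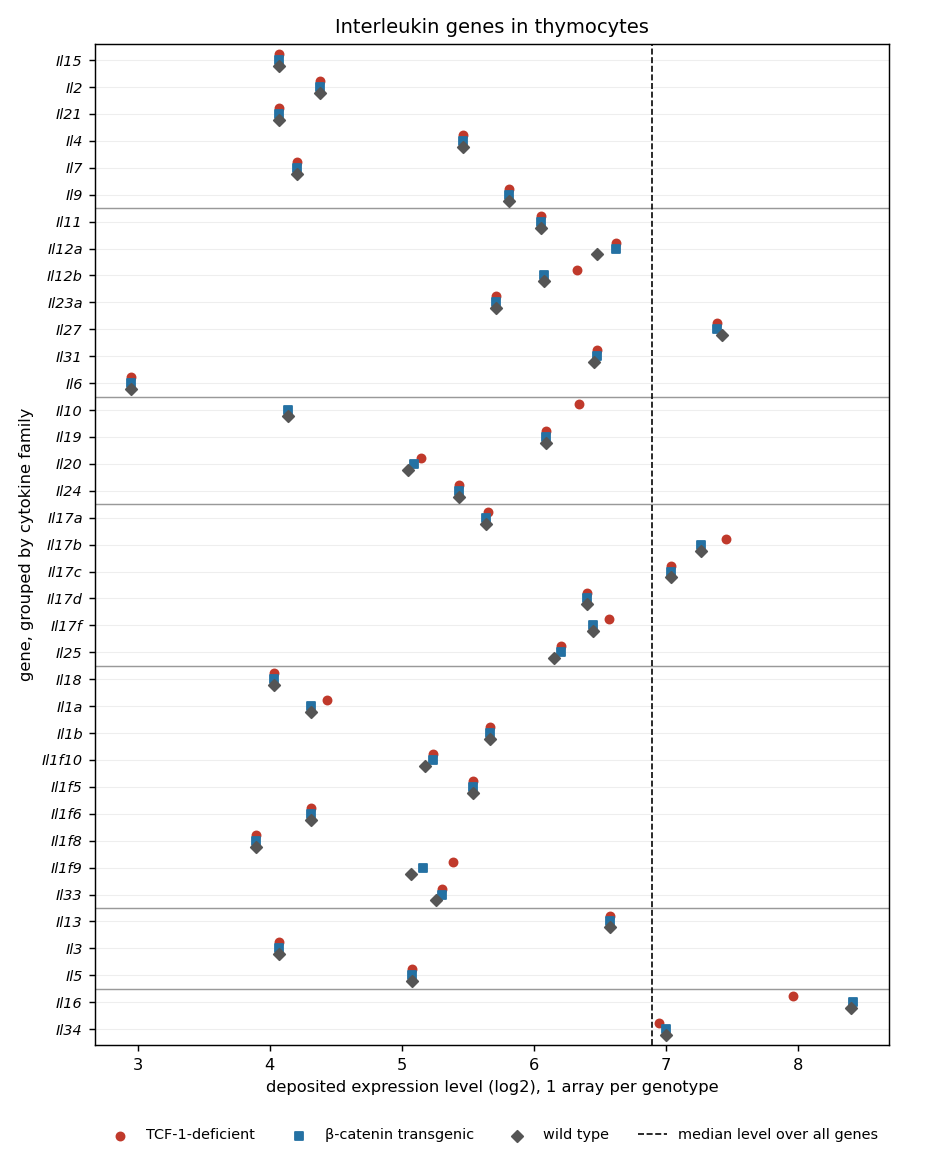
Levels of the 37 interleukin genes on the 3 arrays, 1 point per array on the log2 scale, grouped by cytokine family. Points of 32 genes lie left of the dashed line at 6.90 on every array, and Il10 has its TCF-1-deficient point at 6.34, right of the coinciding transgenic and WT points at 4.14.

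With the β-catenin transgene few genes of any kind were called against WT, 30 higher and 19 lower of 19938. Of 35 receptors 1, Il12rb2, was higher (2.86%) and 0 were lower (background 0.15% and 0.0953% of all genes). At 1.5-fold, 2 were higher (5.71%), Il12rb2 and Il5ra, and 1 was lower (2.86%), Il1rl2 (background 0.487% and 0.667%). Il5ra, the α chain of the IL-5 receptor, was at 5.43 on the TCF-1-deficient, 6.31 on the transgenic and 5.47 on the WT array. It was thus higher on the transgenic array alone, by 0.85 against WT, with dim levels throughout. On the same array Itgam, an integrin chain of granulocytes and macrophages, was above WT by 0.96 and Cd79a, a B cell receptor chain, by 0.97, and their part in the Il5ra value was not tested. The cytokine genes gave 0 calls at either size, and 27 of 37 had the same value on the transgenic as on the WT array (53.3% over all genes). The lowest and highest differences among the cytokines were -0.04 and 0.14.

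The pattern that the design text looks for was not found among these genes at 2-fold. Of the 75, 0 combined a lower level without TCF-1 with a higher level under the transgene. Only 0.15% of all genes were higher with the transgene at 2-fold, so this count of 0 says little about the members. The share of all genes with either order was not computed. At any size 4 genes had that order: Il4ra, Il6st, Il16 and Il5ra. For Il5ra the difference without TCF-1, -0.04, is smaller than the 0.13 by which centring moves the median of all genes. For Il16 the difference with the transgene, 0.01, is smaller than the 0.08 by which centring moves that comparison. The opposite order held for 5: Il7r, Il17rb, Il27ra, Il15ra and Il6ra. For Il6ra the difference without TCF-1, 0.05, is also smaller than 0.13. These counts share the WT array, so they are not separate observations.

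In a direct comparison of transgenic with TCF-1-deficient thymocytes, 2 receptors were higher, Il4ra and Il21r, and 2 were lower, Il9r and Il17rb. The background was 2.45% of all genes higher and 1.57% lower. Il4ra differed by 2.51 (5.71-fold), with levels of 10.86 and 8.35, and Il21r by 1.25. Il9r differed by -1.55 and Il17rb by -1.34. Il7r came close, at -0.95. Il10 was the 1 cytokine gene called, lower on the transgenic array by -2.20. These values come from the same arrays as the comparisons with WT.

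Among genes that carry the signal of these receptors, Socs1 and Stat4 were lower without TCF-1. Of 23 measured genes of the JAK kinases, STAT factors and their inhibitors, 0 were higher and 2 lower without TCF-1 than in WT, with a median of -0.19 (0 over all genes). The background in that comparison was 1.33% of all genes higher and 2.62% lower. Socs1, an inhibitor of JAK kinases induced by cytokines, had a level of 8.70 without TCF-1 and of 10.25 both with the transgene and in WT, a difference of -1.55. Stat4, the factor activated by IL-12, was at 8.94, 9.68 and 10.16, a difference of -1.22. It was therefore low on the array on which Il12rb2 was high.

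The measured kinases and STAT factors of the common γ chain receptors differed from WT by under 2-fold. Jak1 was at 11.11 on the TCF-1-deficient, 11.88 on the transgenic and 11.71 on the WT array, and Stat5b, activated by IL-2 and IL-7, at 10.33, 11.54 and 11.16. Stat6, the factor of the IL-4 receptor, was at 10.004, 10.28 and 10.46, a difference of -0.46 without TCF-1 beside -2.26 for Il4ra. Socs3 had the identical value of 8.36 on all arrays. With the transgene 0 of the 23 were called, and Stat4 had the largest difference, -0.48. Between transgenic and TCF-1-deficient thymocytes 2 of the 23 were higher, Socs1 by 1.55 and Stat5b by 1.21, and 0 were lower (background 2.45% and 1.57%).

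**Figure D4:**
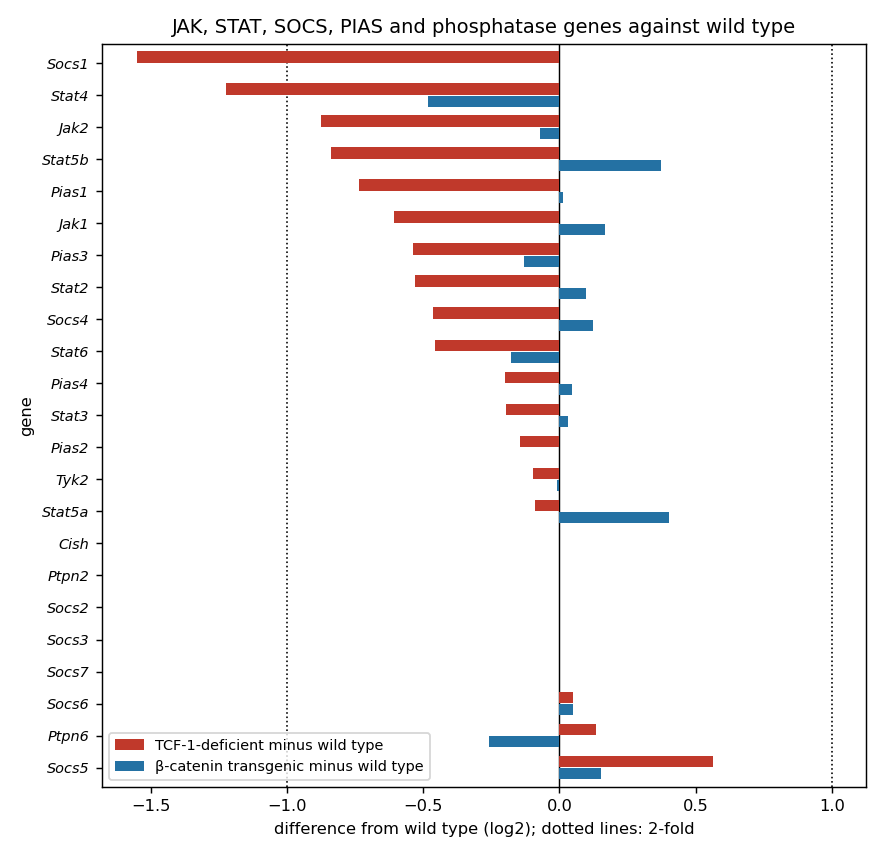
Differences from WT on the log2 scale for 23 genes of JAK kinases, STAT factors and their inhibitors, with the TCF-1-deficient array above the β-catenin transgenic array for each gene. On the TCF-1-deficient array Socs1 at -1.55 and Stat4 at -1.22 lie past the 2-fold line, and 0 genes do so on the transgenic array.

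Of 8 measured genes downstream of the IL-1 and IL-17 receptors, 0 were called in any comparison. Tollip, an adaptor that dampens IL-1 receptor signalling, had the largest difference without TCF-1, -0.43. Of 10 partner chains and cytokines whose symbols do not begin with Il, 8 were dim and 0 were called. The share of all genes called was at most 2.62% in either direction in any comparison. Counts of 0 in such short lists therefore say little about them. Crlf2, which joins the IL-7 receptor α chain to form the receptor for TSLP, was at 7.79 on the TCF-1-deficient and at 7.64 on both other arrays.

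Markers of other cells moved beside these receptors, and their part in the differences was not tested. Of 8 markers of γδ, type 17 and innate-like T and NK cells, 5 were higher and 1 was lower without TCF-1 than in WT. Their mean level was 7.83 on the TCF-1-deficient, 6.64 on the transgenic and 6.62 on the WT array. Of all genes, 1.33% were higher and 2.62% lower in the comparison of TCF-1-deficient with WT. Il23r, itself a member described above, is 1 of the 5, and Maf (2.86), Gzma (2.65), Cd160 (2.12) and Sox13 (1.95) are the others. Klrb1c was the 1 lower gene, by -1.06. Zbtb16, Ncr1 and Klrb1c were dim, as was Il23r. Of 5 B cell markers, 2 were higher, with mean levels of 8.38, 7.41 and 7.11. Of 6 mast cell and basophil markers Cpa3 was higher by 2.92 and Kit differed by 0.21, while Fcer1a, Mcpt8, Ms4a2 and Gata2 were dim. Of 7 macrophage and granulocyte markers Lyz2 was higher by 1.12 and Itgam differed by -0.14, while Csf1r, Cd14, Adgre1, S100a8 and Mpo were dim.

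Of 5 single-positive thymocyte markers, 1, Cd69, was lower without TCF-1, and the mean levels were 8.40 on the TCF-1-deficient, 8.67 on the transgenic and 9.16 on the WT array. None of 4 regulatory T cell markers was called against WT, and none of 5 dendritic cell, 6 thymic epithelial or 6 fibroblast and endothelial markers was. With at most 2.62% of all genes called in either direction against WT, the absence of calls in these short lists says little. All 5 dendritic cell markers were dim, and so were Foxn1, Krt5, Krt8, Epcam and Psmb11 of the epithelial list.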

How the data were processed

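Levels of 35556 probe sets on 3 whole-transcript arrays were used as the authors deposited them. The deposited values were read as log2: RMA and Partek are named per the submitters' processing notes, and values run from 1.73 to 14.8, but no header states the base. Software versions, settings and the build were not given in the sources used here. Of the probe sets, 21789 carry 1 gene symbol in the platform annotation and stand for 19938 genes. The 3 probe sets that pair an Il symbol with another were not used. All 75 members had an identifier in the RefSeq gene table of GRCm38.p6, and 0 symbols changed. Promoter windows come from RefSeq on GRCm38.p6.

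Differences and folds were computed from single arrays, so no test was possible, and precision is limited by their number. The disrupted transcript itself was not analysed here. The members and gene lists were chosen with earlier results of these data known. Named members were those past 2-fold in any comparison, the 10 with the highest mean, and 11 fixed receptor and cytokine genes, of which 10 were measured. Other members named were chosen after their values were seen. Named signalling genes were those past 2-fold against WT, and those named besides were chosen after their values were seen. Alternatives were other thresholds, centring, lowess (span 0.3), other probe set rules and other limits for dim genes. Python 3.11.15, NumPy 2.4.6, pandas 2.3.3, statsmodels 0.14.6 and matplotlib 3.10.9 were used.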

Additional observations from a re-analysis of the deposited data

How the results depend on the processing

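The 22 named members gave 198 alternative differences, under centring, lowess and the mean over probe sets. Of these 193 kept their side of 2-fold, 5 changed side and 0 of the values past 2-fold changed sign. Much of this was fixed in advance, so the count is no measure of robustness. Among the named members Il17rd alone has several probe sets, and centring moves all genes of a comparison by the same amount. Among smaller differences that were not 0, Il12rb1 between the transgenic and TCF-1-deficient arrays turned to -0.03 with centring (0.02 as deposited), and Il17rd with the transgene to -0.0096 as the mean over probe sets (0.10 with its chosen probe set). Il10rb without TCF-1 became -0.98 with each array centred on its median, and Il17rd became 0.97 under lowess and 0.74 as the mean over its probe sets. Il7r between the transgenic and TCF-1-deficient arrays passed 2-fold, at -1.01 with centring and -1.001 with lowess. Centring moves the median over all genes by 0.13 for the TCF-1-deficient comparison, and the medians of receptors and of cytokines there both became 0.13.

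Thresholds moved the receptor counts. At 3-fold, 1 was higher (Il9r) and 2 were lower (Il4ra and Il21r) without TCF-1, 0 were higher with the transgene, and 1 was higher and 0 lower between the transgenic and TCF-1-deficient arrays. At 1.5-fold the transgene gave 2 higher and 1 lower, and the direct comparison gave 7 higher and 5 lower (20% and 14.3%). The shares of all genes at 1.5-fold were 0.487% and 0.667% with the transgene and 6.29% and 4.4% in the direct comparison. At 3-fold they were not computed. Leaving out members dim on all arrays removes Il10, so 0 cytokine genes were higher without TCF-1 and 0 lower between the transgenic and TCF-1-deficient arrays. It also moved the receptor median with the transgene to -0.15. Without identical values that median was -0.19, and between the transgenic and TCF-1-deficient arrays the medians were -0.18 for receptors and -0.12 for cytokines. With dim set at 8, 22 receptors were dim. No paired analysis was possible because each genotype has 1 array.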

Other observations

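Different members carried the same value. Il3, Il21 and Il1rapl1 were each at 4.0721 on all 3 arrays, and this value stood on all arrays for 49 probe sets of the table. Il1b and Il18rap shared 5.66567 on all arrays, a value that 39 probe sets had. The cause was not tested.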
